A study of Mus with 4 samples.

Results

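The genes of cholesterol and fatty acid synthesis are a group of 31 enzymes and regulators, from Hmgcs1 at the head of the mevalonate pathway to the fatty acid desaturase Fads2, and they were chosen by gene symbol from the deposited signal table. The array carried 70 probes for these 31 genes among 26893 gene symbols. All 31 genes had at least 1 probe that could be tested, among 16318 genes tested in all. The study asked which genes the transcription factor OASIS (Creb3l1) changes in podocytes, the filtering epithelial cells of the kidney glomerulus. An immortalized murine podocyte cell line was differentiated for 10–14 days without interferon-γ and then received a lentivirus. The control group (Venus, 2 arrays) carried a lentivirus for Venus, a fluorescent protein, and the OASIS group (2 arrays) one for the active, N-terminal form of OASIS/Creb3l1. Both groups otherwise shared the same conditions, namely a multiplicity of infection of 200–500, 8 μg/mL polybrene and 10% FBS for 24 h, with total RNA taken 48 h after the vector was added. The model is therefore an immortalized line with a truncated factor supplied by a vector, read at a single time.

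Cholesterol is built from acetyl-CoA through mevalonate, isoprenoid units, squalene and lanosterol, and fatty acids are built from the same acetyl-CoA through malonyl-CoA. Both branches are known targets of the SREBP transcription factors (Srebf1 and Srebf2), which Scap escorts from the endoplasmic reticulum to the Golgi when sterols are low and which Insig1 and Insig2 hold back when sterols are high. In the Golgi, proteases release the SREBP N-terminal domain, and OASIS is likewise a membrane-anchored factor that is released by cleavage. In podocytes, the membrane at the slit diaphragm is rich in cholesterol.

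Levels are given as log2 intensity relative to the 75th percentile of the same array, so that 0 is the level of the 75th percentile spot and negative values are dimmer. A log2 fold change is the OASIS mean minus the Venus mean, and a value of 1 is a 2-fold rise. Where a gene had several probes, the brightest one (highest mean of the 4 arrays) stood for the gene. A gene was past the threshold at a fold over 2 or under 0.5 together with an adjusted p under 0.1 (limma, Benjamini-Hochberg over all probes tested), which is the threshold of the study's methods, and the adjusted p alone was used as a second call. The labels do not say whether the 2 samples of a group came from separate cultures, so that the p-values measure only the spread between these samples. In RNA from whole cultures, a fall in the number of cells with a transcript and a fall in RNA per cell cannot be told apart.

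The 4 arrays had from 33938 to 34418 spots well above background out of 59305, with 0 saturated spots, and the correlation between arrays was 0.997 within Venus, 0.995 within OASIS and from 0.973 to 0.978 between the groups. The probe for Creb3l1 itself read 0.71 and 0.72 in Venus and 0.61 and 0.49 in OASIS (log2 fold change −0.17 ± 0.10 SE, adjusted p = 0.298), and since it was not analysed here whether this probe reads the truncated insert, it does not check the labels. Of 10 podocyte markers, 7 were well above background on all 4 arrays, while Ptpro, a phosphatase of mature podocytes, was above background on none. The summed log2 level of the list ran from 5.73 to 5.78 in Venus and from 5.68 to 5.77 in OASIS, and of its 7 tested markers 4 were higher and 3 lower. By their brightest probes Cd2ap and Wt1 were past the threshold and higher with OASIS, but another probe gave −0.37 for Cd2ap (adjusted p = 0.151) and −0.16 for Wt1 (adjusted p = 0.343). The remaining Cd2ap probe gave 0.31 (adjusted p = 0.0920). For the lipid-storing adipocyte, 4 of 7 markers were above background on all 4 arrays, and Adipoq and Cidec on none. The summed level of this list ran from −0.29 to −0.17 in Venus and from −0.12 to 0.06 in OASIS. Of its 4 tested markers 3 were higher and 1 lower, and Pparg was higher by the adjusted p (0.42 ± 0.11, adjusted p = 0.0520). Of the 5 macrophage markers 4 were above background on all 4 arrays and Adgre1 on none. Their summed level ran from 4.13 to 4.21 in Venus and from 3.84 to 3.87 in OASIS. By brightest probe, Csf1r was higher (0.74 ± 0.22, adjusted p = 0.0720) and Itgam lower (−0.51 ± 0.12, adjusted p = 0.0430). A second probe of each gave 0.02 for Csf1r and −0.01 for Itgam. Of the 4 mesangial markers 2 were above background on all arrays (summed level from 1.95 to 2.19 in Venus and from 1.60 to 1.92 in OASIS), of the 6 tubular markers 2 (from 4.42 to 4.87 and from 4.45 to 5.23, with Umod, Slc12a1 and Slc12a3 on none) and of the 5 endothelial markers 1 (from −4.76 to −4.39 and from −4.43 to −4.38, with Kdr, Cdh5, Emcn and Tie1 on none). Of the tubular markers, Lrp2 was past the threshold and higher (log2 fold change 1.62 ± 0.23, adjusted p = 0.0148), with 1.68 from a second probe and from −0.16 to 0.01 with the other 3. In the adipocyte, macrophage, mesangial and endothelial lists 0 genes were past it. The part of these cell types in the results below was not tested.

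Among the 31 synthesis genes, 2 were past the threshold and higher with OASIS, the desaturase Scd2 and the SREBP retention factor Insig1, and 0 were past it and lower. Over all genes tested, 6.21% were past the threshold and higher and 1.85% past it and lower, so that 2 of 31 was near the background. By the adjusted p alone, 4 genes were higher (Scd2, Insig1, Fasn and Ebp) where 18.6% of all genes were, and 11 genes were lower where 18.1% of all genes were. The 11 were Mvk, Fdps, Fdft1, Sqle, Hsd17b7, Dhcr7, Insig2, Scap, Acss2, Fads1 and Fads2. Each of these 11 was lower by less than 2-fold, with log2 fold changes from −0.73 (Insig2) to −0.31 (Fdft1). With an array left out, some or all of these 11 calls were lost, and the count of higher calls moved as well. The share of all genes called in such fits was not computed, so a loss particular to these genes cannot be told from a general one. The median log2 fold change of the 31 genes then ran from −0.25 to −0.13, against −0.07 to −0.04 over all genes.

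In sign, 18 of the 31 genes were lower (58.1%) and 13 higher, where 56.1% of all 16318 genes were lower. The median log2 fold change was −0.21, against −0.06 over all genes. Both OASIS arrays lay below both Venus arrays for 16 genes and above them for 11, where the same held for 39.4% and 31.5% of all genes. The 15 enzymes of the sterol branch had a median of −0.23, with 0 past the threshold, 1 higher and 6 lower by the adjusted p. The 11 enzymes of the fatty acid branch had a median of 0.03, with 1 past the threshold, and 2 higher and 3 lower by the adjusted p. Whether the branches differ was not tested.

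**Figure D1:**
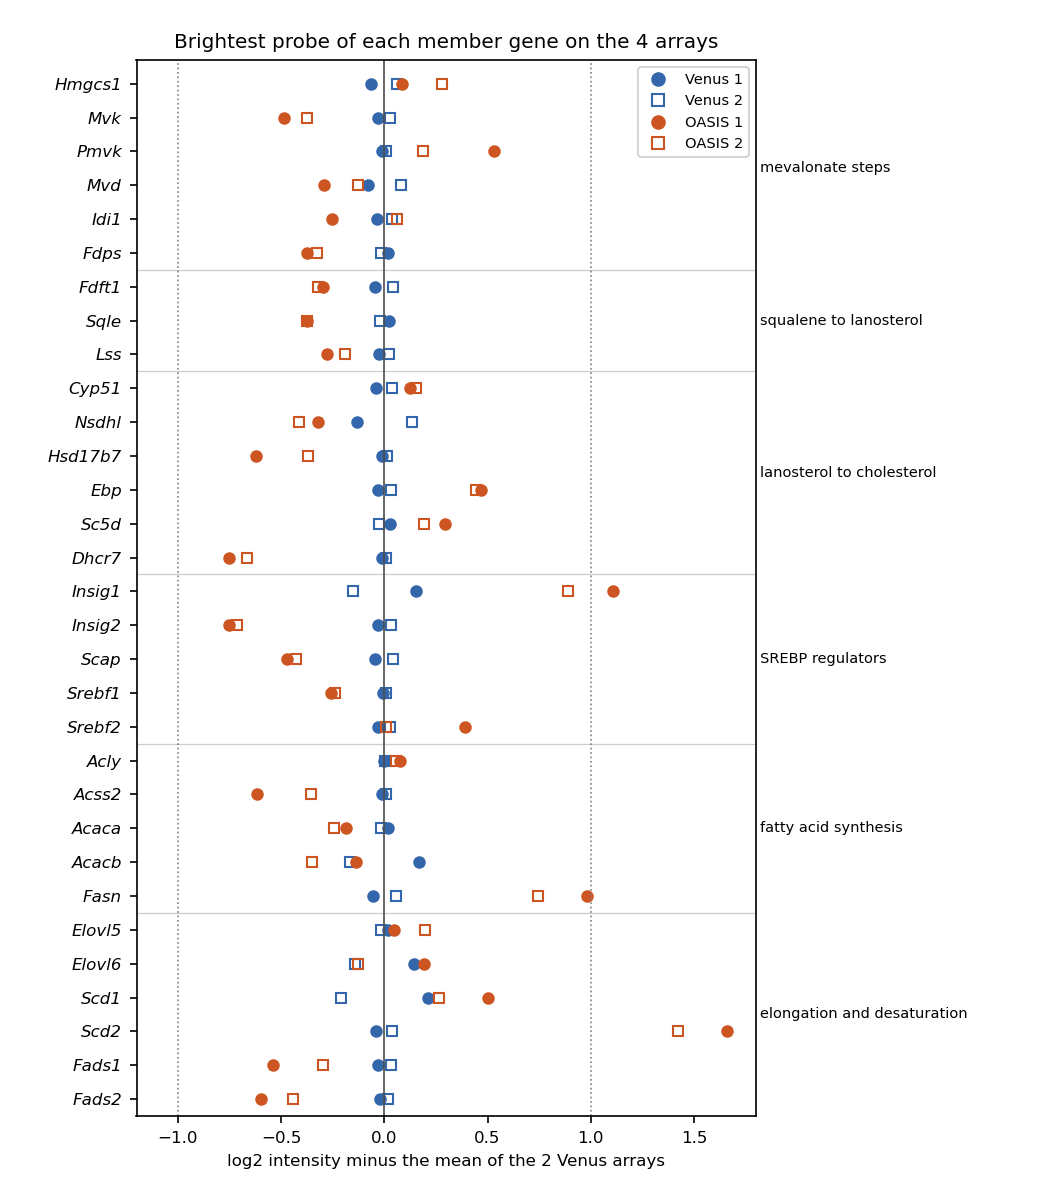
Log2 intensity of the brightest probe of each of the 31 genes on each array, minus the mean of the 2 Venus arrays (blue, Venus; orange, OASIS; filled circles, replicate 1; open squares, replicate 2; dotted lines, 2-fold). Scd2 lies beyond the 2-fold line on both OASIS arrays, Insig1 lies on it with 1 OASIS array on each side, and no gene reaches the 2-fold line on the lower side.

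The 6 genes of the mevalonate steps make isoprenoid units from acetyl-CoA, and 2 of them were lower by the adjusted p and 0 higher (median log2 fold change −0.15). Mvk, the kinase that phosphorylates mevalonate, read 3.42 and 3.48 in Venus and 2.96 and 3.07 in OASIS. This was a log2 fold change of −0.43 ± 0.11 (SE, adjusted p = 0.0480), and a second Mvk probe gave −0.61 ± 0.13 (adjusted p = 0.0389). The groups did not overlap with either probe. Fdps, which joins isoprenoid units into farnesyl pyrophosphate, read 2.30 and 2.26 in Venus and 1.91 and 1.96 in OASIS, a fold of 0.785 (adjusted p = 0.0663).

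The other 4 mevalonate genes did not pass the test. Pmvk, the kinase of the following step, gave a log2 fold change of 0.36 with both of its probes (95% intervals from −0.03 to 0.75 and from 0.02 to 0.70, adjusted p = 0.145 and 0.107). Its 2 OASIS values lay above its 2 Venus values, opposite in sign to Mvk one step earlier. Hmgcs1, which makes HMG-CoA at the head of the pathway, gave 0.18 (95% interval from −0.14 to 0.51). Mvd, which decarboxylates the product to an isoprenoid unit, gave −0.21 (95% interval from −0.53 to 0.11), and Idi1, the isomerase, gave −0.09 (95% interval from −0.47 to 0.28). Among these 4, every interval of a brightest probe included 0 and excluded a 2-fold change in either direction.

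The 3 enzymes from squalene to lanosterol were all lower by their brightest probe, 2 of them by the adjusted p, with a median of −0.31. Sqle, the monooxygenase that commits squalene to sterols, read 2.504 and 2.46 in Venus and 2.10 and 2.11 in OASIS (log2 fold change −0.37 ± 0.10, adjusted p = 0.0560). Fdft1, which makes squalene, was lower with both probes, at −0.31 ± 0.10 (adjusted p = 0.0920) and −0.35 ± 0.10 (adjusted p = 0.0645). For Sqle and for both Fdft1 probes the 2 arrays of a group lay close together and the groups did not overlap. Lss, the cyclase that closes the sterol rings, gave −0.23 ± 0.10 with its brightest probe (adjusted p = 0.161) and −0.25 ± 0.12 with a second (adjusted p = 0.185). The last Lss probe went the other way and is described below.

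From lanosterol to cholesterol, 1 of 6 genes was higher and 2 were lower by the adjusted p (median −0.11). Dhcr7, the reductase of the final step, read −2.33 and −2.31 in Venus and −3.07 and −2.99 in OASIS. Its log2 fold change of −0.71 ± 0.10 (fold 0.612, adjusted p = 0.0151) was the lowest of the 15 sterol enzymes by brightest probe. Hsd17b7, a ketoreductase in the removal of the methyl groups, was lower with all 3 of its probes, at −0.50, −0.84 and −0.95 (adjusted p = 0.0537, 0.0140 and 0.0369). The dimmest of these 3 was above background on 1 of the 2 OASIS arrays.

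Ebp, the isomerase that moves the double bond of the sterol ring, was the only sterol enzyme called higher by its brightest probe. It read 3.41 and 3.47 in Venus and 3.91 and 3.89 in OASIS (log2 fold change 0.46 ± 0.10, adjusted p = 0.0373), and a second probe gave 0.33 ± 0.12 (adjusted p = 0.105). Nsdhl, a dehydrogenase that works with Hsd17b7, gave −0.37 ± 0.13 (adjusted p = 0.113). Cyp51, the demethylase of lanosterol, gave 0.14 ± 0.10 (adjusted p = 0.366) with its brightest probe and −0.42 ± 0.11 (adjusted p = 0.0571) with a second, so that its direction depends on the probe. Sc5d, the sterol desaturase, gave 0.24 ± 0.10 (adjusted p = 0.155) with its brightest probe.

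The 5 regulators of SREBP split, with 1 past the threshold and higher and 2 lower by the adjusted p. Insig1, which retains the SREBP and Scap complex in the endoplasmic reticulum, read −3.55 and −3.85 in Venus and −2.59 and −2.81 in OASIS. The groups did not overlap, and the log2 fold change of its only probe was 1.0004 ± 0.16 (95% interval from 0.59 to 1.41, adjusted p = 0.0183), which put it right at the 2-fold limit. It fell below that limit, with the same direction, under 5 other ways of scaling or correcting the arrays (0.58 under normexp background correction to 0.999 under quantile normalization), without Venus 2 (0.85) and without OASIS 1 (0.89).

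Insig2, its paralogue, had 3 tested probes. The brightest read 1.60 and 1.67 in Venus and 0.88 and 0.92 in OASIS, and the other probes went the opposite way (described below). Scap, the escort of SREBP, read 3.11 and 3.19 in Venus and 2.68 and 2.72 in OASIS (log2 fold change −0.45 ± 0.10, adjusted p = 0.0415). Its groups did not overlap. Srebf1, the SREBP gene best known for fatty acid synthesis, gave −0.25 ± 0.10 (adjusted p = 0.132). Srebf2, best known for cholesterol synthesis, gave 0.20 ± 0.16 (adjusted p = 0.407) with its brightest probe, whose groups overlapped, and −0.47 ± 0.14 (adjusted p = 0.0709) with a second. Neither SREBP gene was past the threshold by any probe.

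Among the 5 genes of fatty acid synthesis proper, 1 was higher and 1 lower by the adjusted p (median −0.21). Fasn, the synthase that builds palmitate, read 4.96 and 5.07 in Venus and 6.001 and 5.76 in OASIS. Both OASIS arrays were higher, by a log2 fold change of 0.86 ± 0.13 (fold 1.82, 95% interval of the log2 value from 0.52 to 1.21, adjusted p = 0.0167), short of 2-fold. Acss2, which makes acetyl-CoA from acetate, was lower with all 3 tested probes, at −0.48, −0.47 and −0.89 (adjusted p = 0.0584, 0.0341 and 0.0615). The last of these was above background on 1 of the 2 OASIS arrays.

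Acly, which makes cytosolic acetyl-CoA from citrate, differed little, with a log2 fold change of 0.07 ± 0.10 (95% interval from −0.19 to 0.32) and −0.15 ± 0.17 with a second probe. The acetyl-CoA carboxylases supply malonyl-CoA. Acaca, the cytosolic form, gave −0.21 ± 0.10 (adjusted p = 0.181) with its brightest probe. Acacb, the mitochondrial form, gave −0.24, −0.02 and 0.25 with 3 probes (adjusted p = 0.322, 0.957 and 0.313), and the groups overlapped with each.

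Among the 6 genes of elongation and desaturation, Scd2 was past the threshold and higher, and Fads1 and Fads2 were lower by the adjusted p. Scd2, a stearoyl-CoA desaturase that makes monounsaturated fatty acids, read 1.003 and 1.08 in Venus and 2.70 and 2.47 in OASIS. The Venus mean was 1.04 ± 0.05 and the OASIS mean 2.58 ± 0.17 (SD, n = 2 each), and the log2 fold change of 1.54 ± 0.13 (SE, fold 2.91, adjusted p = 0.00601 by limma) was the highest of the 31 genes by brightest probe. It was past the threshold under every alternative tried. Scd1, its close paralogue in the same band of chromosome 19 (qC3), gave 0.38 ± 0.19 (95% interval from −0.11 to 0.87, adjusted p = 0.197), with groups that did not overlap. Each Scd gene rests on 1 tested probe, and how far these probes separate the paralogues was not analysed here.

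Fads2 and Fads1, the desaturases that open the synthesis of long polyunsaturated fatty acids, lie together in band qA of chromosome 19. All 5 Fads2 probes were lower with OASIS, with log2 fold changes from −0.85 to −0.52, and all 5 passed the adjusted p (from 0.0134 to 0.0672). Its brightest probe read 2.74 and 2.78 in Venus and 2.16 and 2.32 in OASIS. The 3 Fads1 probes gave −0.42, −0.69 and −0.84 (adjusted p = 0.0777, 0.171 and 0.0160), the brightest reading 1.84 and 1.90 in Venus and 1.33 and 1.57 in OASIS. None of these 8 probes was lower by 2-fold, and for each of them both OASIS arrays lay below both Venus arrays. The elongases gave 0.12 ± 0.11 for Elovl5 by its brightest probe (adjusted p = 0.454) and 0.03 ± 0.17 for Elovl6 (95% interval from −0.42 to 0.49, adjusted p = 0.904).

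**Figure D2:**
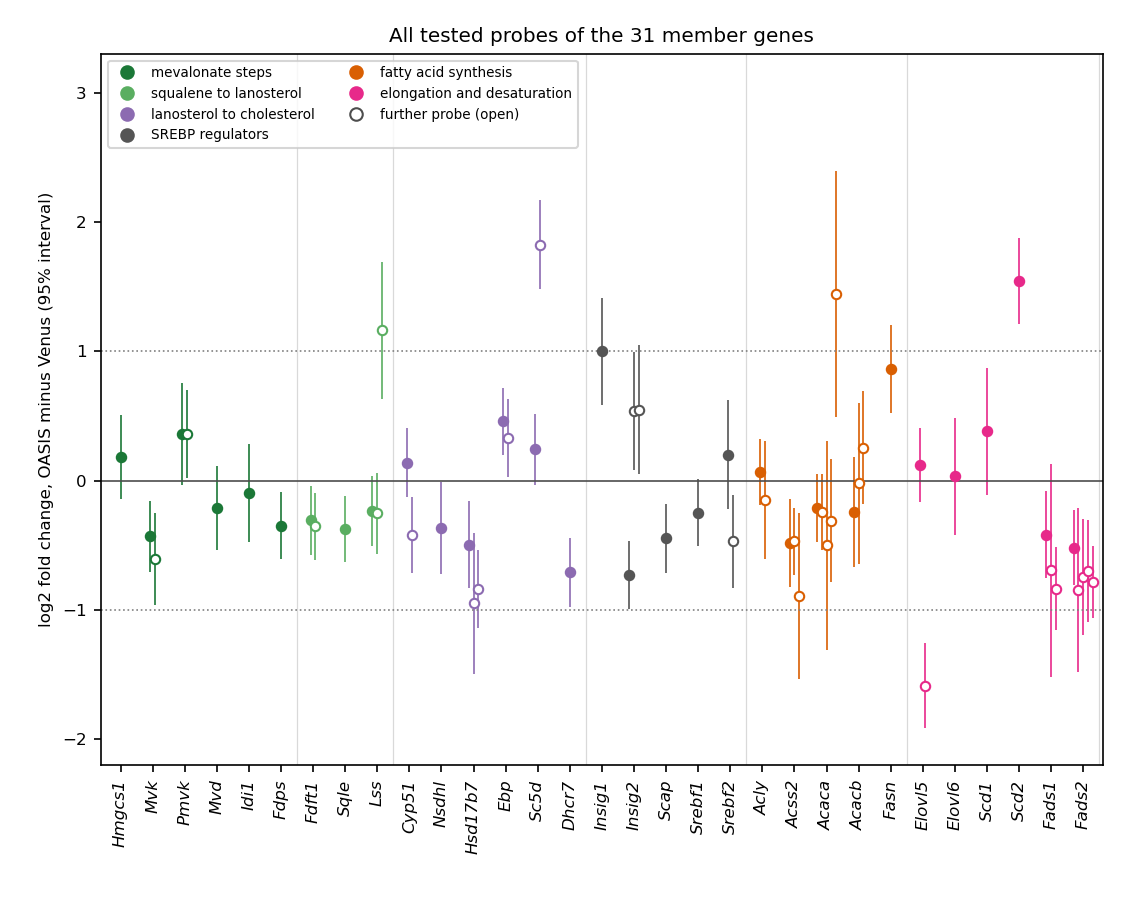
Log2 fold change (OASIS minus Venus) of all 60 tested probes of the 31 genes, with 95% intervals from the fit (filled, brightest probe of the gene; open, further probes; colours, role; dotted lines, 2-fold). The 5 probes of Fads2 and the 3 of Hsd17b7 stay below 0, while single open points of Lss, Sc5d, Acaca and Elovl5 stand more than 2-fold from 0 and far from the filled point of the same gene.

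Of the 70 probes, 60 were tested, 58 of them well above background on all 4 arrays and 2 on 3 arrays. Of the 10 that were not tested, 8 were above background on no array. Over the 60 probes, 39 were lower and 21 higher with OASIS, 25 were lower and 8 higher by the adjusted p, and 5 were past the threshold and higher against 1 lower. The 5 were the only probes of Scd2 and Insig1 and 1 further probe each of Sc5d, Lss and Acaca, and the 1 was a further probe of Elovl5. The matching shares over all probes tested on the array were not computed, and genes with several tested probes weigh more in these counts. A lean of these probes to either side therefore cannot be told from a general one. For 17 genes at least 2 probes were tested. In 9 of these genes all probes had the same sign, lower in 6 (Mvk, Fdft1, Hsd17b7, Acss2, Fads1 and Fads2) and higher in 3 (Pmvk, Ebp and Sc5d), and in 8 they fell on both sides of 0.

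Within 5 of the 17 genes, a further probe changed by more than 2-fold relative to the brightest probe, with an adjusted p under 0.1. This comparison was added after the values were seen. It gave 6 such probes of 29, where 10.5% of all 10812 further probes on the array met the same limits. In Sc5d, the further probe A_52_P67637 read −2.53 and −2.27 in Venus and −0.61 and −0.54 in OASIS. Its own log2 fold change was 1.82 ± 0.13 (fold 3.54, adjusted p = 0.00468), and it exceeded that of the brightest probe by 1.58 ± 0.15 (adjusted p = 0.0107). Both Sc5d probes were higher with OASIS, so that they differ in size and not in sign.

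In Elovl5, the further probe A_55_P2522620 read −3.95 and −3.87 in Venus and −5.61 and −5.38 in OASIS. Its log2 fold change of −1.59 ± 0.12 (fold 0.333, adjusted p = 0.00558) differed from that of the brightest probe by −1.71 ± 0.11 (adjusted p = 0.0101). The deposited table assigns this probe to a predicted Elovl5 transcript and the brightest probe to the curated one. In Lss, the further probe A_52_P118161 read −4.76 and −4.31 in Venus and −3.51 and −3.24 in OASIS (1.16 ± 0.20, adjusted p = 0.0224), a difference of 1.40 ± 0.18 from the brightest probe (adjusted p = 0.0134). All 3 Lss probes are assigned to the same curated transcript.

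In Acaca, the further probe A_55_P2898142 read −5.02 and −5.71 in Venus and −3.52 and −4.33 in OASIS (1.44 ± 0.36, adjusted p = 0.0509), a difference of 1.65 ± 0.35 (adjusted p = 0.0397). The other 4 tested Acaca probes lay between −0.50 and −0.21, and none of them passed the adjusted p. Under normexp background correction the further probes of Elovl5, Lss and Acaca were no longer past 2-fold (−0.54, 0.51 and 0.47), while the further probe of Sc5d stayed past the threshold. The Lss probe also fell short of 2-fold without Venus 1 (0.93), and the Acaca probe missed the adjusted p without Venus 2 (log2 fold change 1.10) and without OASIS 1 (1.04). The methods' t-test left neither the Lss probe nor the Acaca probe past the threshold (adjusted p = 0.167 and 0.253), and the Acaca probe also missed it with no filter on dim probes (adjusted p = 0.173).

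Insig2 was the gene with calls in both directions. Its brightest probe gave −0.73 ± 0.10 (fold 0.602, adjusted p = 0.0139). A second probe read 0.80 and 1.04 in Venus and 1.27 and 1.64 in OASIS (0.54 ± 0.17, adjusted p = 0.0886), and the remaining one read −0.07 and −0.07 in Venus and 0.23 and 0.73 in OASIS (0.55 ± 0.19, adjusted p = 0.102). They differed from the brightest by 1.27 ± 0.16 (adjusted p = 0.0129) and 1.28 ± 0.18 (adjusted p = 0.0165). With each of the 3 probes the groups did not overlap. The brightest and this last probe are assigned to the same transcript in the deposited table. The direction of Insig2 therefore depends on the probe, and its count among the 11 lower genes rests on the brightest one.

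**Figure D3:**
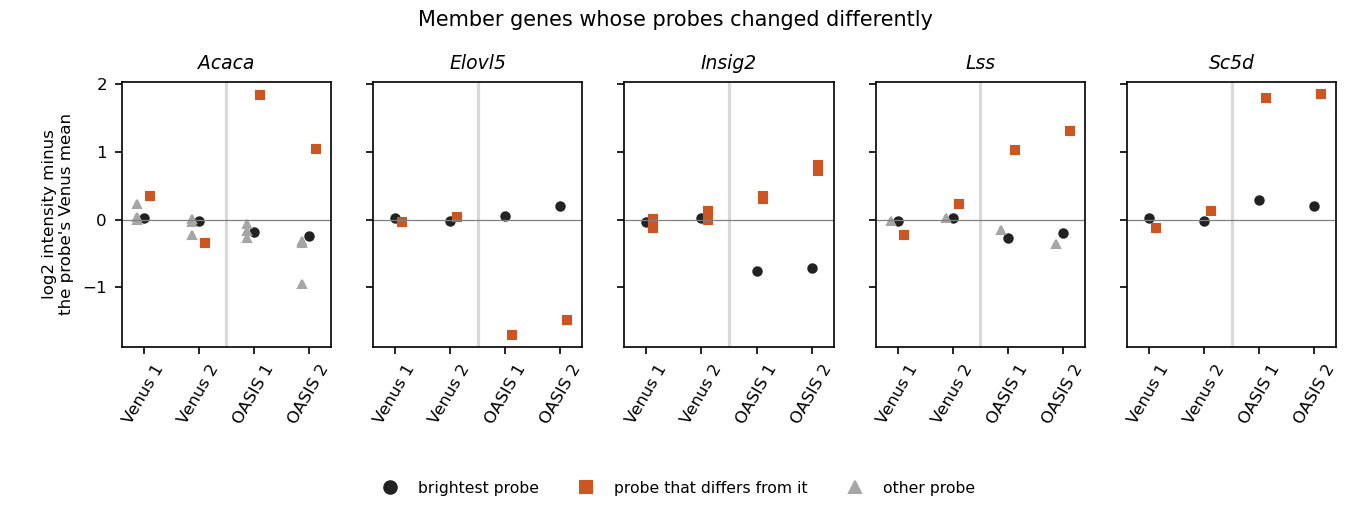
Log2 intensity of each tested probe of Acaca, Elovl5, Insig2, Lss and Sc5d on the 4 arrays, minus the probe's own Venus mean (black circles, brightest probe; orange squares, probes whose change differed from it by over 2-fold with an adjusted p under 0.1; grey triangles, other probes). On both OASIS arrays the orange squares lie above the black circles in Acaca, Insig2, Lss and Sc5d and below them in Elovl5.

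The surrounding lipid genes were taken as 7 lists. In the list of other sterol synthesis enzymes, 6 genes were tested, with 0 past the threshold and 0 higher and 3 lower by the adjusted p (median log2 fold change −0.41). Among 11 genes of SREBP processing and degradation, 0 were past the threshold by their brightest probe, 2 were higher and 1 lower by the adjusted p (median 0.17). The sign of this median changed with the choice of probe, as given below. The 2 most changed were Sec22b, a transport factor between endoplasmic reticulum and Golgi (0.86 ± 0.14, adjusted p = 0.0190), and Faf2, which takes part in the degradation of Insig1 (−0.37 ± 0.10, adjusted p = 0.0611). The 2 dimmer Sec22b probes gave 1.90 and 2.03. Mbtps2, the site-2 protease that releases the SREBPs from the membrane, is named here after its values were seen, and its probes differed. Its brightest probe gave 0.17 ± 0.11 (adjusted p = 0.291), while 2 further probes were past the threshold and lower (−1.73 ± 0.21, adjusted p = 0.0107, and −1.27 ± 0.19, adjusted p = 0.0165). The first of these 2 is dimmer only by the mean of the 4 arrays. In Venus it read 1.62 and 1.46, above the 0.97 and 1.11 of the brightest probe.

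Sterol uptake and transport held 11 tested genes, with 1 past the threshold and higher, and 5 higher and 2 lower by the adjusted p (median 0.33). Tmem97, a sterol-responsive membrane protein that binds the cholesterol transporter Npc1, read 0.98 and 1.03 in Venus and 3.36 and 3.03 in OASIS. Its log2 fold change was 2.19 ± 0.15 (fold 4.57, adjusted p = 0.00413), and a second probe gave 2.10 ± 0.18. Stard3 and Stard4 of this list are named after their values were seen. Stard3 gave 0.03 ± 0.10 with its brightest probe and 1.21 ± 0.18 (adjusted p = 0.0160) with a dimmer one. For Stard4 the brightest probe gave 0.33 ± 0.14, which is the median of the list. A dimmer Stard4 probe gave −1.39 ± 0.12 (adjusted p = 0.00645). Of the 10 tested of 12 genes of LXR signalling and sterol efflux, 0 were past the threshold, 1 was higher and 1 lower by the adjusted p (median −0.18). Abca1, the cholesterol efflux pump, gave −0.78 ± 0.34 (adjusted p = 0.162) with its brightest probe and −1.27 ± 0.24 (adjusted p = 0.0265) with a dimmer one. Rxra, the partner receptor of LXR, gave 0.58 ± 0.11 (adjusted p = 0.0295) and −0.73 ± 0.13 (adjusted p = 0.0257) with its 2 probes, so that its direction depends on the probe.

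Fatty acid activation and glycerolipid synthesis held the most changed genes of the 7 lists, with 2 of 14 past the threshold and higher and 1 lower, and 7 higher and 1 lower by the adjusted p (median 0.23). Lpin3, a phosphatidate phosphatase, read −2.32 and −2.52 in Venus and 1.70 and 1.23 in OASIS (log2 fold change 3.88 ± 0.20, fold 14.7, adjusted p = 0.00274). Dgat2, which makes triglyceride from diglyceride, read −0.98 and −0.86 in Venus and 1.63 and 1.23 in OASIS (2.35 ± 0.17, fold 5.11, adjusted p = 0.00467). Acsl4, which activates polyunsaturated fatty acids, read 3.17 and 3.09 in Venus and 1.90 and 1.64 in OASIS (−1.36 ± 0.13, fold 0.390, adjusted p = 0.00731). Of its further probes, 1 gave −1.37 ± 0.15 and 1 gave 0.84 ± 0.13. For these 3 genes by brightest probe the groups lay far apart relative to the spread within each. Gpam, counted among the 7 higher, is named after its values were seen. It gave 0.84 ± 0.10 (adjusted p = 0.0111) with its brightest probe and −1.10 ± 0.22 (adjusted p = 0.0295) with a dimmer one.

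The list of other fatty acid synthesis genes had 17 of 21 tested, 0 past the threshold, and 1 higher and 3 lower by the adjusted p (median −0.13). Its 2 most changed genes were Scd4, a further stearoyl-CoA desaturase (−0.77 ± 0.24, adjusted p = 0.0802, against 1.56 ± 0.32 with a dimmer probe), and Oxsm, a mitochondrial synthase (−0.47 ± 0.18, adjusted p = 0.128, against −1.04 with a dimmer probe). The faintest Oxsm probe was above background on no OASIS array, so that only a bound holds for it, at least 1.82-fold lower. In fatty acid oxidation, 11 of 14 genes were tested, with 1 past the threshold and higher, and 3 higher and 1 lower by the adjusted p (median −0.06). Cpt1b, a carnitine palmitoyltransferase of mitochondrial import, read −4.92 and −5.28 in Venus and −3.79 and −3.74 in OASIS (1.33 ± 0.15, adjusted p = 0.00996), and lost the call under normexp background correction (0.63) and under the methods' t-test (adjusted p = 0.118). Nothing particular to any of these lists was tested.

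**Figure D4:**
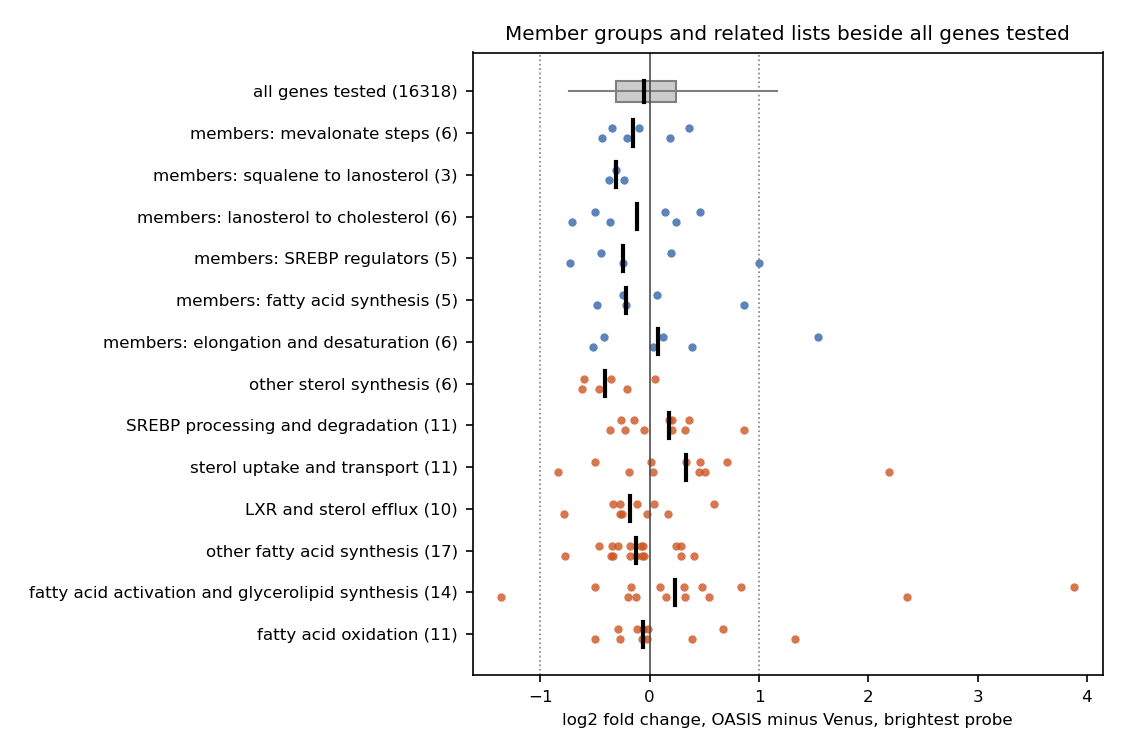
Log2 fold change (OASIS minus Venus) by brightest probe for the 6 role groups of the 31 genes (blue) and the 7 related lists (orange), each point a gene and each black bar the median, with the number of genes tested in parentheses. The grey box spans the 25th to 75th percentile of all 16318 genes (−0.31 to 0.24) and its line the 5th to 95th (−0.74 to 1.17), and the points farthest from 0 are Lpin3, Dgat2 and Tmem97 on the higher side and Acsl4 on the lower side.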

How the data were processed

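Total RNA of 4 samples, 2 per group as the labels number them, was hybridised to 1-colour SurePrint G3 Mouse GE arrays. The authors deposited, per spot, the intensity corrected for background by Agilent Feature Extraction 12.1.0.3, median spot and background intensities, and per-spot marks (outlier, saturated, well above background). They also deposited a tabulated scaled intensity with a detection score per spot, gene symbols, transcripts and bands. Each scaled column is the corrected intensity times 1 factor per array (0.663 to 0.698). The arrays' number limits the precision.

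Control and outlier spots were left out, log2 intensity was scaled by subtracting the 75th percentile of its array, the spots of each probe were averaged, and a probe counted as above background where at least 0.5 of its spots did, and was tested where this held on both arrays of a group (31598 of 56605 probes). limma 3.58.1 in R 4.3.3 fitted OASIS minus Venus with lmFit and eBayes, with Benjamini-Hochberg adjustment. An exact permutation of 2 against 2 arrays cannot give a two-sided p below 0.333. On data simulated from the real probes with 200 of 16313 genes changed, the fit recovered 97 of 100 genes changed by a log2 value of 1.5 and 99 of 100 changed by 2.5, and made 8 other calls, and it made 0 calls on data with no change. Changes smaller than 1.5 were not simulated, and the simulated noise was independent between probes and arrays. The recovery therefore does not cover the smaller changes reported here.

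The 31 genes, the lists and the tests were chosen with earlier results of these data known. All 31 symbols matched RefSeq by gene ID. Named were every one of the 31 genes and, in each related list, the genes past the threshold or, where there were none, the 2 most changed genes above background on all arrays. Mbtps2, Stard3, Stard4 and Gpam were named outside this rule, for dimmer probes past the threshold. For some genes picked by this rule or held in the marker lists, values are not reported here. Listed genes without a tested probe, such as Idi2, stay out of the counts of genes tested. Sequences and promoter motifs were not analysed here, and no coordinates are given, since no genome of the array's design build was used. Alternatives were quantile normalization, median scaling, normexp background correction with an offset of 50 on median intensities, outlier spots kept, the filter on dim probes dropped or extended to all 4 arrays, the authors' scaled values, a gene's mean over probes or its probe with the smallest p, eBayes with an intensity trend, the methods' t-test, the replicate number as a block, an adjusted p under 0.05, and each array left out. The comparison of probes within a gene was added after the values were seen.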

Additional observations from a re-analysis of the deposited data

How the results depend on the processing

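Of 527 values of single synthesis genes under the alternatives, 497 kept their direction and their side of the threshold (fold and adjusted p together), 8 lost the call (all Insig1), 2 gained it (Sc5d, with the mean of its probes at 1.03 and its probe with the smallest p at 1.82) and 20 changed sign, among them Acaca, Lss and Elovl5, which were past the threshold with the probe of smallest p. The count past the threshold and higher went from 2 to 1 under quantile normalization, median scaling, normexp, the authors' scaled values, outlier spots kept and the methods' t-test, and to 5 with the probe of smallest p, which also gave 1 lower. It was 1 to 2 with an array left out, and 0 lower each time. The count higher by the adjusted p (4) was 7 under normexp, 7 with the smallest p, 2 by the methods' t-test and 2 to 5 with an array left out. The count lower (11) was 7 with no filter, 4 by the methods' t-test and 5 at an adjusted p under 0.05. At most it was 15 over the alternatives that kept all 4 arrays. With an array left out, some or all of the lower calls were lost. In such fits the lone array of a group was taken to vary like the other group. The median (−0.21) was −0.14 under normexp, −0.14 with the mean of probes, −0.25 with the smallest p and −0.25 to −0.13 with an array left out. Medians of related lists moved as well. For SREBP processing and degradation (0.17) the median was −0.145 with the mean of probes and −0.145 with the smallest p. For sterol uptake and transport (0.33) it was 0.0185 with the mean of probes and 0.452 with the smallest p. For fatty acid activation and glycerolipid synthesis (0.23) it was 0.0555 with the mean of probes. The cause of these shifts was not tested.

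Sign changes came mostly with the choice of probe. With the mean of probes, the log2 fold change was 0.0347 for Acaca, −0.0428 for Acly, −0.14 for Cyp51, −0.73 for Elovl5, 0.12 for Insig2, 0.22 for Lss, −0.14 for Srebf2, −0.0738 for Rxra and 0.40 for Scd4. With the probe of smallest p it was 1.44 for Acaca, 0.25 for Acacb, −0.15 for Acly, −0.42 for Cyp51, −1.59 for Elovl5, 1.16 for Lss, −0.47 for Srebf2, −0.73 for Rxra and 1.56 for Scd4. For Insig2 another probe became the brightest under normexp (0.51), without Venus replicate 1 (0.42) and without Venus replicate 2 (0.66), so that it ranged from −0.75 to 0.66 with an array left out. Elovl6 turned to −0.11 without Venus replicate 2 and −0.13 without OASIS replicate 1 (0.19 without OASIS replicate 2), and Idi1 to 0.0629 without OASIS replicate 1.

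With the replicate number as a block, 2 genes were past the threshold and higher, 5 higher and 11 lower by the adjusted p, and the median was −0.21. Same-numbered arrays deviated together with a correlation of 0.259 over only 2 pairs, so that the numbers were not counted as pairing the samples. No slide block was fitted. Under normexp, Insig1 and the further probes of Acaca, Elovl5 and Lss lost the call, and that of Sc5d kept it. Among the surrounding genes, the methods' t-test took the call from Acsl4, Cpt1b and Dgat2 (adjusted p = 0.105, 0.118 and 0.102), and Acsl4 was at −0.63 with the mean of its probes. Signal over background left 10 of the 70 probes untested.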

Other observations

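KEGG terms in the deposited annotation, looked up once the values were known, take in lipid synthesis genes beyond the 31. Of the 18 tested genes of steroid biosynthesis, 1 was past the threshold, Soat2, which esterifies cholesterol. Soat2 read −4.64 and −4.79 in Venus and −5.88 and −6.22 in OASIS (log2 fold change −1.33 ± 0.16, adjusted p = 0.0106 by limma), with 1 of the 2 OASIS arrays above background. By the adjusted p, 2 of the 18 were higher and 7 lower, and the median was −0.27. Of the 19 tested genes of terpenoid backbone synthesis, 1 was past the threshold and higher. This was Acat1, a mitochondrial thiolase, which read −0.21 and −0.01 in Venus and 1.13 and 1.09 in OASIS (1.22 ± 0.12, adjusted p = 0.00748).

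In the KEGG term for fatty acid biosynthesis, with 15 tested genes, 2 genes of the mitochondrial pathway were past the threshold and higher, and Acsl4 was past it and lower. Htd2, a dehydratase, read −0.20 and −0.34 in Venus and 1.33 and 1.23 in OASIS (1.56 ± 0.11, adjusted p = 0.00468), with 0.85 from a second probe. H2-Ke6, which codes for a hydroxysteroid dehydrogenase, read 1.90 and 1.69 in Venus and 3.26 and 2.85 in OASIS (1.26 ± 0.18, adjusted p = 0.0152), with 0.97 from a second probe. Oxsm, which belongs to the same mitochondrial pathway, was lower with all 3 of its probes, 1 of them only as a bound, as described above. None of the 25 tested genes of fatty acid elongation was past the threshold by limma, with 1 higher and 6 lower by the adjusted p. Of the 28 tested genes in the term for unsaturated fatty acids, Scd2 was past the threshold and higher, and by the adjusted p 2 were higher and 6 lower. Each of these 5 terms shares genes with the 31 (9, 6, 3, 2 and 6 genes).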
